A study of Caenorhabditis elegans with 2 samples.

Results

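The genes described here are 8 members of the DBL-1 pathway of *Caenorhabditis elegans*, out of 19973 protein-coding genes on the nuclear chromosomes: dbl-1, lon-2, daf-4, sma-6, sma-2, sma-3, sma-4 and sma-9. They were chosen by name, with the strong signal value of a region upstream of sma-9 already known, so their values are given as a description and no test is made on them. Every peak summit inside a gene or within 5000 bp of either end was taken, which gave 2 of 737 peaks in the authors' final list, 43 of 30000 candidate regions of the pooled replicates, 39 of 30000 in replicate 1 and 51 of 30000 in replicate 2. Binding of PROS-1 fused to eGFP was mapped by ChIP-seq, in which DNA fragments held by a protein are pulled down with an antibody and sequenced, in whole late embryos with both sexes pooled. The worms were of strain OP500, which carries unc-119(tm4063) on chromosome III and the transgene wgIs500, and there was 1 group of 2 biological replicates. Both replicates share this genotype, no treatment is given, and the lists hold no other strain to compare with. The label calls the tagged construct an insertion without giving its promoter, and no expression was measured by which the labelled stage or cells could be checked.

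PROS-1 is a homeodomain transcription factor, the worm relative of fly Prospero and vertebrate PROX1. The DBL-1 pathway is a bone morphogenetic protein (BMP)-like branch of transforming growth factor beta signalling, best known in worms for setting body size and for patterning the male tail. A secreted ligand binds a pair of receptor kinases, the receptors phosphorylate Smad proteins, and the Smads enter the nucleus and act on target genes with partner proteins. The authors' final list was filtered by irreproducible discovery rate (IDR), a measure of how well replicates rank the same regions, and its members are called IDR peaks here. The longer lists hold candidates that include background. In whole embryos, strong binding in few cells and weak binding in many cannot be told apart.

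The sequences under the 2 IDR peaks are printed first because the results turn on them, followed by the strongest candidate at lon-2. All are WBcel235 (ce11) sequence from RefSeq, read 5′ to 3′ on the strand of the named gene. Capitals mark matches to the motifs described further on. The region upstream of sma-9 is the whole IDR peak, chrX:10766271-10766450, 180 bp on the plus strand, with the summit at base 97. The region downstream of sma-6 reaches 100 bp to each side of the summit, chrII:6331504-6331704, plus strand. The lon-2 region reaches 50 bp to each side of an intronic summit, chrX:4744156-4744256, minus strand.
sma-9 upstream: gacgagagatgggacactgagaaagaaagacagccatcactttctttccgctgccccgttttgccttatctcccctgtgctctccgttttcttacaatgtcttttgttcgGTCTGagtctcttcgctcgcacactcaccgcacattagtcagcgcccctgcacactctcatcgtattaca
sma-6 downstream: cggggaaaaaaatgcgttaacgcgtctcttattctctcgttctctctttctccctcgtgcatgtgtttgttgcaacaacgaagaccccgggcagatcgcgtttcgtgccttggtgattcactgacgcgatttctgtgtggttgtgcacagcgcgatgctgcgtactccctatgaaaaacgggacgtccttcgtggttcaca
lon-2 intron: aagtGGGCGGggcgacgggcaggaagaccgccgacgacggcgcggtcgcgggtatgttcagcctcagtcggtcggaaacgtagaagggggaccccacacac

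The strongest PROS-1 region of the pathway lay 2915 bp upstream of sma-9, which encodes a zinc-finger protein homologous to Schnurri, a nuclear partner of Smads in flies. Its signal value in the pooled list was 102.8. The q-value of 7.83e-04 was the lowest in that list and was shared with the weaker peak near sma-6 described below. Signal values are the authors' score for each region, on a scale that is not stated and that differs between lists, so they are used to describe and rank regions within a list. In replicate 1 the signal value was 24.7 and in replicate 2 it was 72.3. The region therefore ranked 9 of 737 among IDR peaks, 17 of 30000 in replicate 1 and 14 of 30000 in replicate 2. The summits of the 3 lists, at positions 10766367, 10766362 and 10766366 of the X chromosome, lay within 5 bp of each other.

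The region was near the top of both libraries. With a limit of rank 20, chosen after the values were seen, 2 IDR peaks were within it in both replicates, that of sma-9 and that nearest to a start of zfp-1. Other peaks lay just outside the limit, with ranks in replicates 1 and 2 of 25 and 10, 1 and 28, and 10 and 29. Among the 166 IDR peaks in intergenic sequence the sma-9 region ranked 3, and among the 185 on the X chromosome it also ranked 3. Its pooled signal value was 80.9% of the strongest in the list and 2.82 times the IDR median. The ratio of the replicate 2 to the replicate 1 signal value was 2.93, close to the median of 2.92 over the 607 IDR peaks with a summit within 100 bp in both replicates.

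The summit lay in an intergenic interval of 11129 bp between the end of R07A4.3 and the start of sma-9. R07A4.3 ended 8215 bp from the summit, and the nearest other protein-coding start, that of R07A4.4, was 8659 bp away. The nearest non-coding gene was T05A10.8, at 2505 bp, and 0 non-coding genes lay within 500 bp. Within the same interval the pooled list held 5 candidates, replicate 1 held 4 and replicate 2 held 6. The strongest exceeded the next by 5.71 times in the pooled list, 4.85 times in replicate 1 and 5.05 times in replicate 2, so it stood alone in each.

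**Figure D1:**
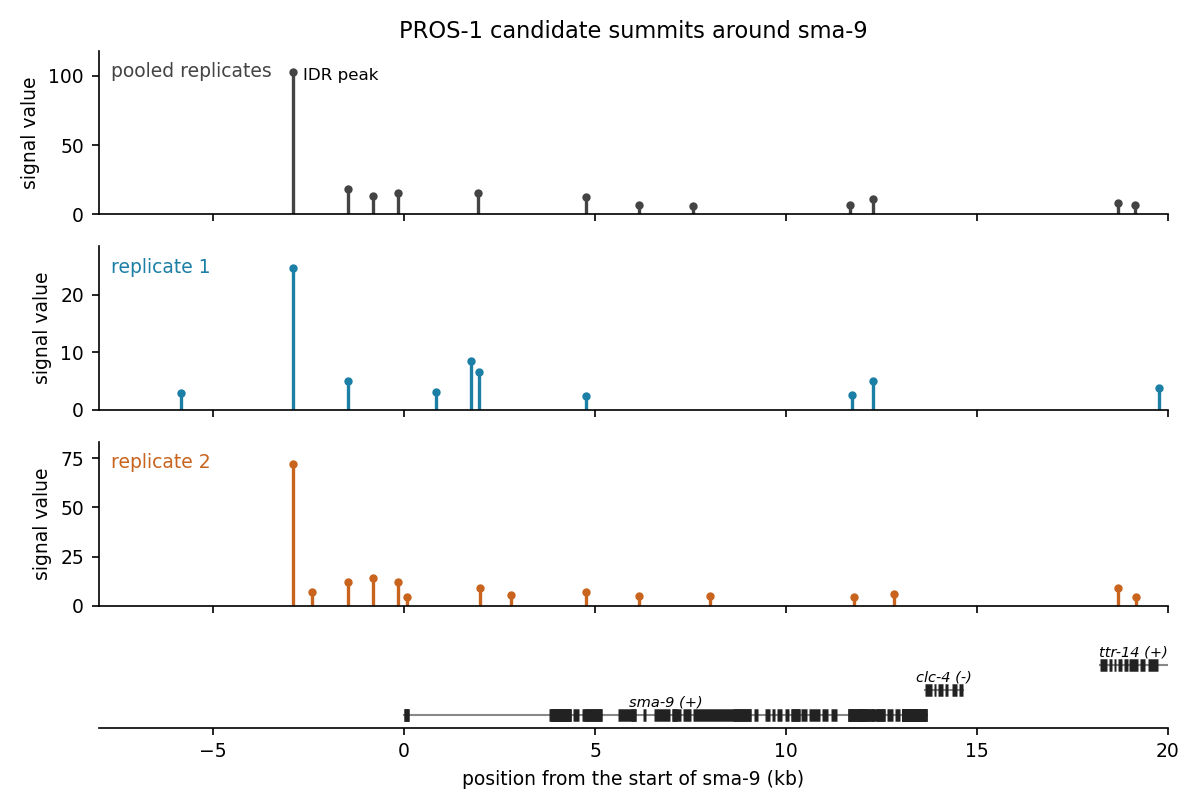
Signal value of each candidate summit (vertical lines, authors' score, 1 panel per list) against position from the start of sma-9 in kb, with protein-coding genes below (boxes are exons, + and - the strand). The summit at -2915 bp, at 102.8 in the pooled list, 24.7 in replicate 1 and 72.3 in replicate 2, is the tallest in each panel, and the summits within the gene are all lower.

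The gene sma-9 itself, at X, 10769282 to 10782973 on the plus strand, has 16 annotated transcripts with 6 distinct starts spread over 8620 bp. The other 9 pooled candidates in its window had signal values from 6.12 to 18.0, and 0 of them were IDR peaks. The strongest of these, 1475 bp upstream, had a signal value of 18.0 (q-value 0.0372) and was found in both replicates, at ranks 5080 and 2571. Closer to the gene, candidates lay 822 bp upstream (13.4) and 164 bp upstream (15.7), each with a matching summit in replicate 2 only. A candidate at an internal start, 49 bp downstream of it and 4766 bp from the gene's first base, had a signal value of 12.6 and ranks of 25197 and 10910.

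An intronic candidate 1947 bp into sma-9 had a signal value of 15.6 and ranks of 2056 in replicate 1 and 6369 in replicate 2. Replicate 1 also held a summit 1753 bp into the gene with rank 835 and a signal value of 8.49, which had no summit within 100 bp in the pooled list or in replicate 2. Thus the distal region alone was strong in both replicates, and the weaker regions of the gene differed in order between them.

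The other IDR peak of the pathway genes lay downstream of sma-6, which encodes the type I receptor, but next to other genes. Its summit, on chromosome II at 6331604, was 4249 bp past the end of sma-6 (6324484 to 6327355, plus strand) and 7120 bp from its start. The nearest start, 263 bp away, was that of set-4, which encodes a histone H4 methyltransferase, and the summit lay upstream of it. The gene on the other side, ttc-39B, ended 216 bp from the summit, in an interval of 478 bp between both genes. The IDR peak would be assigned to set-4 by nearest start.

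The peak near sma-6 was strong in replicate 2 alone. Its signal value was 56.0 in the pooled list (q-value 7.83e-04, rank 112), 50.6 in replicate 2 (rank 74) and 3.21 in replicate 1 (rank 16099 of 30000). The ratio between the replicates was 15.8, above that of 99.0% of the 607 IDR peaks found in both, and 5 of those peaks had a higher ratio. A further 121 of the 737 IDR peaks (16.4%) had a summit within 100 bp in replicate 2 only, so they have no ratio. Conversely, the strongest summit of replicate 1 in the sma-6 window, at rank 410 with a signal value of 10.6, lay 3458 bp upstream of sma-6 and 75 bp downstream of an annotated start of efr-3. That region had a pooled signal value of 12.9 (rank 4162) and no summit within 100 bp in replicate 2. So each replicate had a strong region in this window, at a different gene. At the receptor gene itself, the candidates 428 bp upstream (signal value 7.81, rank 16068) and 2043 bp inside (6.56, rank 22705) matched only in replicate 2, while replicate 1 had a summit 25 bp upstream at rank 25554.

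**Figure D2:**
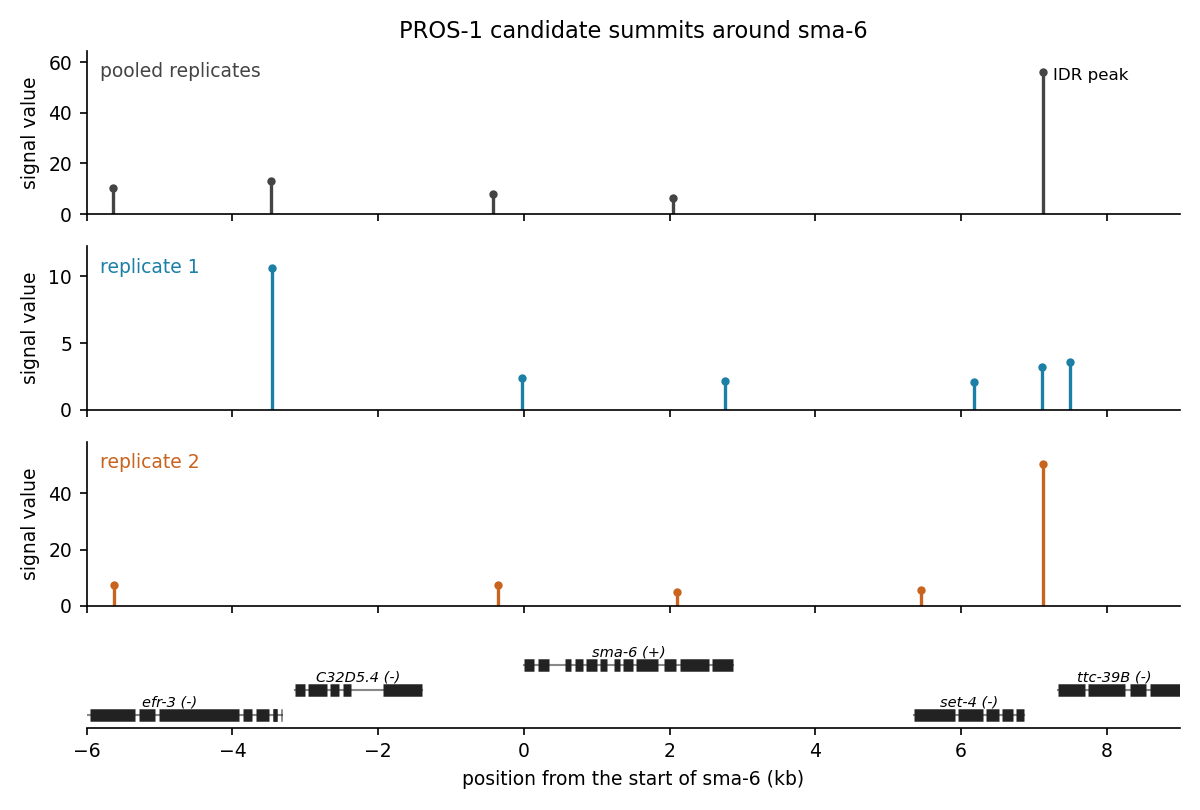
Signal value of each candidate summit (vertical lines, authors' score, 1 panel per list) against position from the start of sma-6 in kb, with protein-coding genes below (boxes are exons). The IDR peak lies beside set-4, at 56.0 in the pooled list and 50.6 in replicate 2 but 3.21 in replicate 1, where the tallest summit is that at efr-3 (10.6).

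**Figure D3:**
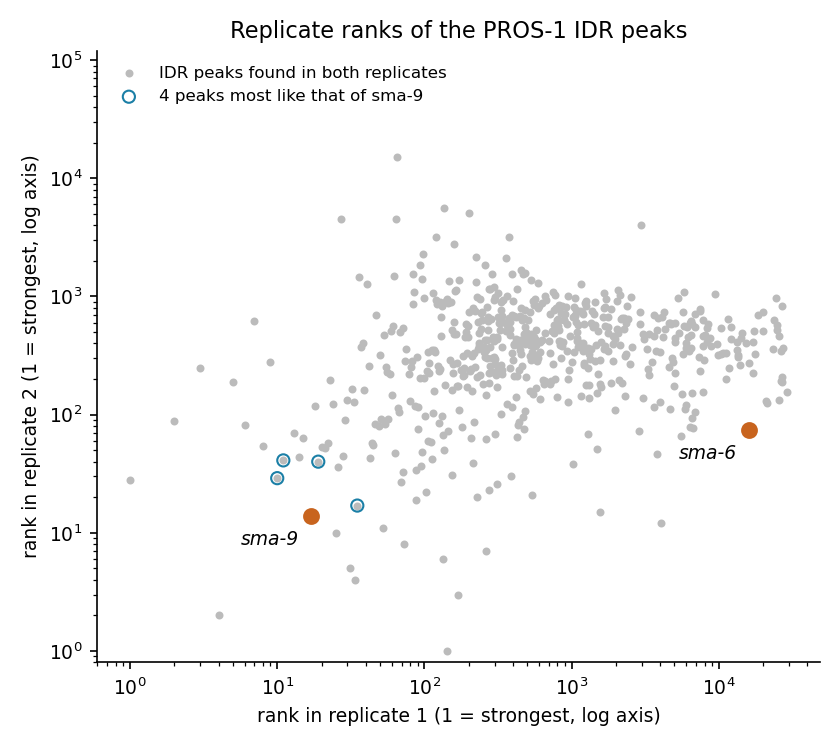
Rank of each of the 607 IDR peaks found in both replicates, in replicate 1 (horizontal, log axis) and replicate 2 (vertical, log axis), where 1 is the strongest. The sma-9 peak (ranks 17 and 14) is near the lower left corner, and the sma-6 peak (16099 and 74) is far to the right, with a high rank in replicate 2 alone.

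The other 6 pathway genes had no IDR peak in the gene or within 5000 bp. The distance from the gene to its nearest IDR summit was 22923 bp for daf-4, 37863 bp for sma-2, 76284 bp for lon-2, 100509 bp for sma-4, 108111 bp for sma-3 and 119330 bp for dbl-1. The median over all protein-coding genes was 55310 bp, and 4 of the 8 pathway genes were closer than that. The distances therefore fell on both sides of the genome's median. At the IDR threshold, the weakest IDR peak had a signal value of 26.41 and the strongest candidate outside the list 26.37, while the 41 pathway candidates outside the list reached 20.9. Of those 41, 3 had a q-value under 0.05, at sma-2, lon-2 and sma-9, with ranks of 1209, 1217 and 1655 in the pooled list. The share of all pooled candidates under that limit was not counted, so nothing is read from the 3.

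The ligand gene dbl-1 (V, 6758135 to 6760418, plus strand) had the lowest strongest summit of the 8 genes in the pooled list and in replicate 1, but not in replicate 2. Its 4 pooled candidates ranged from 5.55 to 10.2 in signal value. The strongest lay 3392 bp upstream inside the non-coding gene T25F10.7, with no summit within 100 bp in either replicate. A candidate in the 3′ UTR (9.96) matched rank 5464 of replicate 2, and a candidate in a coding exon (5.55, rank 29972 of 30000) matched rank 27195 of replicate 1. The strongest dbl-1 region exceeded that of 41.9% of all protein-coding genes and was thus below the median gene.

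The gene of the extracellular antagonist, lon-2 (X, 4738964 to 4749083, minus strand), encodes a glypican that binds the ligand and limits signalling. Its strongest region was intronic, 4877 bp from the start, with a pooled signal value of 20.9 (q-value 0.0119, rank 1217), 14.7 in replicate 2 (rank 1573) and no matching summit in replicate 1. This is the lon-2 sequence printed above, and its GC content of 68.3% was higher than that of 99.8% of all pooled candidates. The remaining 6 candidates had signal values of 5.77 to 9.24, and 3 of the 7 lay in exons of the neighbour aman-1. In replicate 1 the strongest summit of the window lay in an aman-1 exon (5.41, rank 4123), so the replicates differed in where their strongest region was.

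The type II receptor gene daf-4 (III, 5625135 to 5632323, plus strand) had 7 pooled candidates, 4 of them upstream and 3 downstream of the gene, with 0 inside it. The strongest was 3528 bp upstream, at 14.2 in the pooled list (q-value 0.162, rank 3222) and 12.7 in replicate 2 (rank 2310), with none in replicate 1. Further summits at 2518, 2311 and 1608 bp upstream had signal values of 8.96, 7.71 and 10.1. Both the first and the last of these matched replicate 2, at ranks 4834 and 4887, and none of the 4 upstream candidates matched replicate 1. The candidate found in both replicates (13.5, ranks 7795 and 13451) lay 515 bp upstream of ckk-1, the next gene. Inside daf-4, replicate 1 alone held summits, none with a counterpart in the pooled list. The strongest of them, also the strongest of the window in replicate 1, was 318 bp past an annotated start (5.64, rank 3606).

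The genes of the receptor-regulated Smads, sma-2 and sma-3, each had a candidate that was strong in a single replicate. At sma-2 (III, 8749680 to 8757089, plus strand) the strongest region had its summit 11 bp inside the gene's first base, at 20.9 in the pooled list (q-value 0.012, rank 1209). The same bases also lie within the annotated span of ugtp-1. The signal value was 21.2 in replicate 2 (rank 705), and replicate 1 had no summit within 100 bp. At sma-3 (III, 6860974 to 6863968, minus strand) the strongest region lay 1146 bp upstream, at 16.2 in the pooled list (q-value 0.0844, rank 2164). Replicate 1 gave it a signal value of 8.83 (rank 729), and replicate 2 had no summit within 100 bp. So these Smad genes were each among the 737 strongest of a replicate, but of different replicates. A second sma-3 candidate, 89 bp upstream of the start, was weaker (10.9), with rank 20269 in replicate 2 alone.

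The co-Smad gene sma-4 (III, 5816232 to 5820204, plus strand) had 2 pooled candidates, the fewest of the 8 genes. They lay 1229 bp upstream (14.1, rank 3268) and 3246 bp upstream (10.7, rank 7239), and both matched replicate 2 only, at ranks 17506 and 5858. The nearer of them was 42 bp upstream of R12B2.7, a different gene. Replicate 1 held a single summit in the window, 126 bp inside sma-4, with a signal value of 6.17 (rank 2614), and it had no counterpart in the pooled list.

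**Figure D4:**
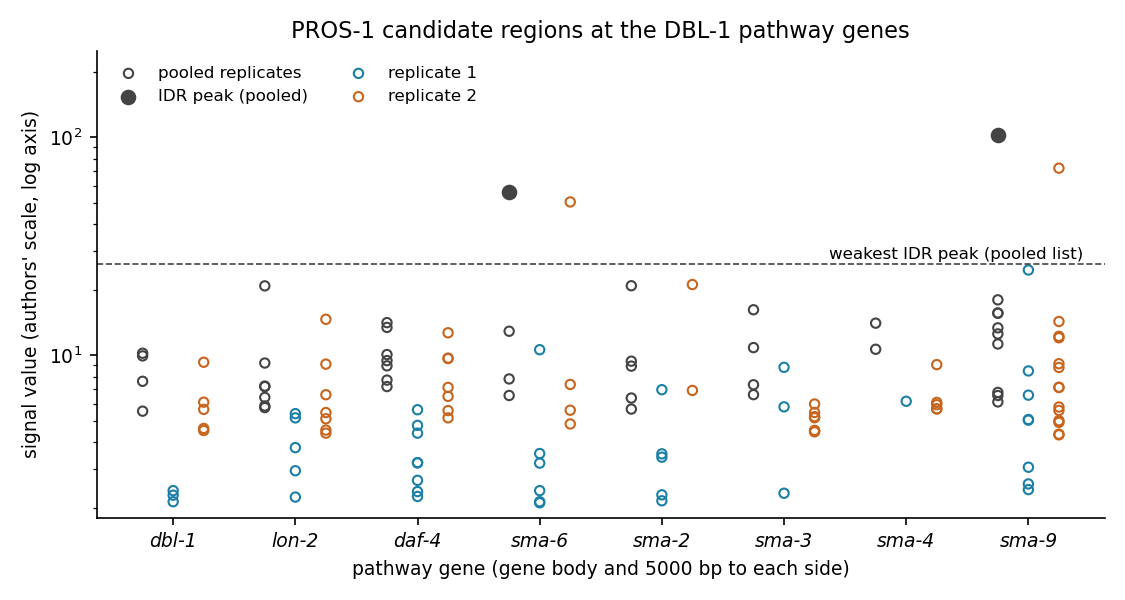
Signal value (authors' score, log axis) of every candidate summit at each of the 8 pathway genes, in the pooled list (grey), replicate 1 (blue) and replicate 2 (orange), with IDR peaks filled. The dashed line is the weakest IDR peak, 26.41 on the pooled scale, and only the regions near sma-9 (102.8) and sma-6 (56.0) lie above it in the pooled list.

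Across the pathway, 2 of 8 genes had an IDR summit in the gene or within 5000 bp, against 1745 of 19973 protein-coding genes, or 8.74%. The exact 95% binomial interval of that share, 8.35% to 9.14%, covers only the counting of genes. It takes genes as independent, although neighbouring windows can share a summit. Of the 513 genes whose window was at least as long as that of sma-9, 23692 bp, 87 had an IDR summit. The sma-9 region was among the reasons for choosing the genes, so nothing is read from the share of 25.0%. In the promoter window, which runs from 1000 bp before to 200 bp after each annotated start, 0 of 8 genes had an IDR summit, against 2.55% of all genes.

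Among the 737 strongest candidates of replicate 1 the genes with a summit in the window were sma-9, sma-6 and sma-3, 3 of 8 against 8.79% of all genes. Among those of replicate 2 they were sma-9, sma-6 and sma-2, 3 of 8 against 8.40% of all genes. The sma-6 summits were at different places in the 2 replicates, beside efr-3 and beside set-4. The sma-9 region was the only place among the 8 genes that was in the top 737 of both.

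The strongest pooled summit per gene put the pathway genes in the order sma-9 (102.8), sma-6 (56.0), sma-2 (20.89), lon-2 (20.86), sma-3 (16.2), daf-4 (14.15), sma-4 (14.07) and dbl-1 (10.2). The pooled list gives no spread, and the neighbours sma-2 and lon-2, and likewise daf-4 and sma-4, were nearly equal in it. The strongest summit of a window was not always the same region in each list: in replicate 1 that of sma-2 lay in an intron of aak-1, 3720 bp past the end of sma-2, and that of lon-2 in an exon of aman-1. In replicate 1 the strongest values were 24.7 for sma-9, 10.6 for sma-6, 8.83 for sma-3, 6.97 for sma-2, 6.17 for sma-4, 5.64 for daf-4, 5.41 for lon-2 and 2.40 for dbl-1. In replicate 2 they were 72.3 for sma-9, 50.6 for sma-6, 21.2 for sma-2, 14.7 for lon-2, 12.7 for daf-4, 9.31 for dbl-1, 9.08 for sma-4 and 5.99 for sma-3. The gene sma-9 was highest and sma-6 next in both replicates, but only at sma-9 did both values come from the same region. Those of sma-6 lay beside efr-3 in replicate 1 and beside set-4 in replicate 2. The gene sma-3 was high in replicate 1 and lowest in replicate 2.

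Set against all genes, the strongest summit of sma-9 exceeded that of 99.9% and only 19 genes, itself included, reached its value. The share was 98.6% for sma-6, 86.3% for sma-2, 86.2% for lon-2, 77.6% for sma-3, 69.6% for daf-4 and 69.2% for sma-4. The median of the 8 genes was 18.5 against 11.1 over all protein-coding genes, and 7 of the 8 were above that median. The sma-9 value was among the reasons for choosing the genes, so nothing is read from these summaries. Some of the summits, such as that of sma-6 beside set-4, lie nearest to the start of another gene. The windows of the pathway genes ran from 12284 to 23692 bp, against a median of 12027 bp over all genes, and the part of window length in these values was not tested.

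**Figure D5:**
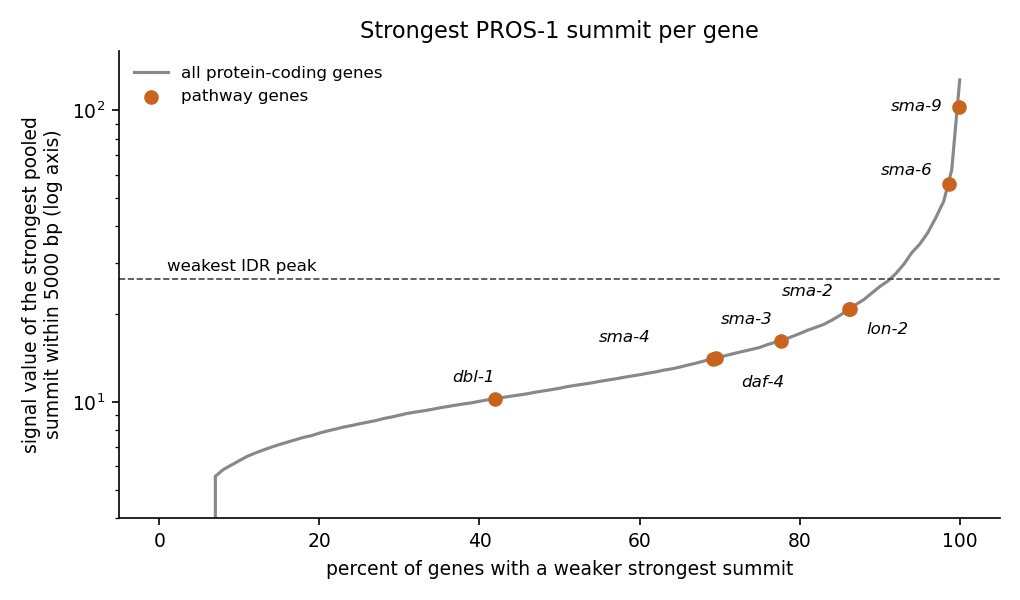
Signal value of the strongest pooled summit in the gene or within 5000 bp (log axis) against the percent of protein-coding genes with a weaker one, for all genes (line) and the 8 pathway genes (points). Points lie on the line by construction, with dbl-1 at 41.9%, sma-6 at 98.6% and sma-9 at 99.9%, and 1398 of 19973 genes have no candidate.

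The 43 pooled candidates of the pathway genes were for the most part weak. Their median signal value was 9.42, against 8.05 over the whole pooled list, and 16 lay upstream of the member gene, 15 within it and 12 downstream. For 18 of the 43 the nearest start belonged to another gene. Promoter windows of any gene held 13, intergenic sequence 11, coding exons 8 and introns 8. Places and nearest starts were not counted over the whole pooled list, so nothing about the pathway is read from these counts. Both replicates had a summit within 100 bp of 8 candidates (18.6%), only replicate 1 of 11 (25.6%), only replicate 2 of 18 (41.9%) and neither of 6. Over all 30000 pooled candidates both replicates matched 15.3%, only replicate 1 19.5% and only replicate 2 44.8%, so the pathway candidates were replicated about as often as candidates in general. Of the 737 IDR peaks, 82.4% matched both.

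The sequence features of the pathway regions were described with 7 motifs, searched on both strands within 50 bp of each summit. The motifs were the Smad-type letters CAGAC and GTCTAGAC, AAGACG and AAGGCG from the site bound by vertebrate PROX1, the GAGA repeat GAGAGAG, the GC-box GGGCGG and the GATA-type TGATAA. None of the 7 contains another on either strand. At the sma-9 upstream summit only CAGAC was found, as GTCTG on the plus strand starting 14 bp past the summit. This motif occurred at 173 of 737 IDR summits (23.5%) and at 11.5% of the 29263 other candidates, so it was not rare at either kind of summit. At the summit beside set-4, 0 of the 7 motifs were found.

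GC content was 51.5% at the sma-9 summit and 54.5% at the summit beside set-4. The median was 52.5% over IDR summits and 40.6% over the other candidates, so both pathway peaks had the base composition of the IDR list. Among the 41 pathway candidates that were not IDR peaks, TGATAA occurred at 7 (17.1%, against 7.06% of other candidates and 0.950% of IDR summits). CAGAC occurred at 4 (9.76% against 11.5%), AAGACG at 3 (7.32% against 4.55%), GGGCGG at 2 (4.88% against 3.19%), and AAGGCG and GTCTAGAC at 0.

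GAGAGAG occurred at 3 of these 41 candidates (7.32%, against 3.90% of other candidates and 17.9% of IDR summits). They were the strongest candidates of sma-3 and daf-4 and the intronic candidate of sma-9, and they are printed here to show the repeat beside the summit. Each reaches 50 bp to each side of its summit, which is base 51, WBcel235 from RefSeq, on the strand of its gene, with motif matches in capitals. Their positions are chrIII:6865064-6865164 (minus strand), chrIII:5621557-5621657 (plus strand) and chrX:10771179-10771279 (plus strand).
sma-3 upstream: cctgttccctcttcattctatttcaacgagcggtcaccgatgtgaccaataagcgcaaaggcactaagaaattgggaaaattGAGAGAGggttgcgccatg
daf-4 upstream: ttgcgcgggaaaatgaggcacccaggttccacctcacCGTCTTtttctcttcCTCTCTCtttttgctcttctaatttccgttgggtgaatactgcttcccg
sma-9 intron: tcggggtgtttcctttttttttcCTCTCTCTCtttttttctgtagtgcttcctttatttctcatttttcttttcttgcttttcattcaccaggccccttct
The repeat began 32 bp past the summit at sma-3 and 2 bp past it at daf-4, where CGTCTT, the reverse complement of AAGACG, began 13 bp before it. In the sma-9 intron it lay in a pyrimidine-rich stretch starting 27 bp before the summit, with 2 overlapping matches.

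The IDR peaks most like the sma-9 region were sought by the distance between log2 signal values in the 2 replicates, among 606 other IDR peaks found in both. The closest, at a distance of 0.178, lay 3967 bp past the start of W02H3.3 on the X chromosome in intergenic sequence, with signal values of 26.0 in replicate 1 and 64.7 in replicate 2. Next was a peak in a coding exon on the X, 15169 bp upstream of the nearest start, that of C41A3.2 (distance 0.219, signal values 23.9 and 62.3). It was followed by the peak 321 bp upstream of serp-1.1 (0.220, 21.2 and 71.8), also on the X. The last was the peak 131 bp upstream of the histone gene his-68 (0.226, 25.8 and 62.3). In the pooled list these 4 ranked 14, 21, 16 and 20, below the sma-9 region at 9.

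Some other genes that modulate DBL-1 signalling had IDR peaks at their own starts. Of the 8 core genes 0 did, against 2.55% of all genes, so no contrast is read from this. The gene lists used here and below were chosen with earlier results of these data known. Of 15 listed modulators and cofactors 4 had an IDR summit in the gene or within 5000 bp (26.7%, against 8.74% of all genes), and all 4 had one in a promoter window (against 2.55%). The strongest was 245 bp upstream of kin-29, a kinase gene that affects body size, with a signal value of 57.5 (rank 104), 48.8 in replicate 2 (rank 88) and no matching summit in replicate 1. The netrin receptor gene unc-40 had a peak 257 bp upstream (30.8, ranks 1141 and 401 in replicates 1 and 2). The gene of the BMP receptor-associated protein homolog bra-1 had a peak 152 bp upstream (27.1, ranks 7461 and 753).

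The tetraspanin gene tsp-21 had a peak 151 bp inside its start (27.6, ranks 25671 and 462). A further IDR peak in its window (29.5, ranks 548 and 915) lay 41 bp upstream of C17G1.5. The remaining 11 modulators, among them lon-1, crm-1, drag-1 and sma-10, had no IDR summit in their windows.

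In the dauer branch of the family, which shares daf-4 with the DBL-1 branch, and other ligands, 3 of 8 genes had an IDR summit in the window (against 8.74% of all genes) and 0 in a promoter window (against 2.55%). The Sno/Ski-type gene daf-5 had an intronic peak (38.4, ranks 29036 and 156) and the Smad gene daf-14 an intronic peak 1177 bp upstream of an internal start (38.9, ranks 1440 and 286). The co-Smad gene daf-3 had a peak 2184 bp upstream (27.3, rank 618 in replicate 2 and none in replicate 1), with wdr-54 the nearer gene. Among 7 cuticle genes that affect body size or shape, including lon-3, rol-6 and sqt-1, 0 had an IDR summit in the window (against 8.74%). Their strongest pooled summits ranged from 7.91 to 24.8 in signal value. Over the 3 lists, 7 of 30 genes (23.3%) had an IDR summit in the window, against 8.74% of all genes. The same windows held 1 of the 737 strongest candidates or more for 4 of 30 genes in replicate 1 (against 8.79% of all genes) and 7 of 30 in replicate 2 (against 8.40%).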

How the data were processed

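The data are ChIP-seq peak lists in the ce11 build. Per the text files deposited with the samples, the authors made a candidate list from each replicate's alignments and another from the pair together, all with 1 further file in common, and derived the IDR list from these 3. The labels name a possible control. The aligner, the peak caller and the IDR threshold are not given in the sources used here. The deposited signal value is the authors' score for each peak, and another deposited column gives −log10 q-values, as the layout defines it. Lists in ce10, read counts and signal tracks were not used here, so depth is unknown and only a count of genes has an interval.

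Genes were taken from Ensembl release 115 (WBcel235) and sequence from the RefSeq copy of that assembly, in which 99.9% of 24285 annotated start codons read as ATG. A gene's window was its annotated span with 5000 bp on each side, and a summit counted when it lay in it. Summits within 100 bp in 2 lists were matched. All IDR peaks were the strongest pooled candidates, so the 737 strongest candidates of each replicate were used for comparison. A summit in a promoter window was classed as that, then by exon or UTR, intron, other gene or intergenic. With 2 replicates of 1 group and members chosen on these data, no test was run.

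The members, gene lists and motifs were chosen with earlier results of these data known. Genes were named by rule: all members, every listed gene with an IDR summit in its window, the neighbours of each member IDR summit, and the 4 IDR peaks most like that of sma-9. Other neighbours nearest to a named candidate, genes listed as examples and zfp-1 were named after their values were seen. The window step was tested on simulated data, with summits planted at 6 distances from 200 genes, and gave 1200 of 1200 right answers. Alternatives covered the window, the stronger part of the list (369 peaks), each replicate alone, overlap in place of summits, nearest-start assignment, matching distances of 50 and 200 bp and motif windows of 25 and 100 bp to each side. Tables were handled with pandas 2.3.3 and numpy 2.4.6 under Python 3.11.15, intervals came from scipy 1.17.1, and plots from matplotlib 3.10.9.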

Additional observations from a re-analysis of the deposited data

How the results depend on the processing

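The count of 2 pathway genes with an IDR summit stayed at 2 within 10000 bp, with overlap in place of summits and in the stronger part of the IDR list. It was 0 within 1000 bp, 0 within 2000 bp, 0 in the promoter window and 1 (sma-9) when each summit went only to the nearest start, since the peak near sma-6 went to set-4. The share of all genes was 3.78% within 1000 bp, 5.13% within 2000 bp, 14.3% within 10000 bp, 4.44% for the stronger part of the list, 3.28% by nearest start and 2.55% in the promoter window, which follows from the size of each window or list. With 1 replicate left out the count was 3 in each case, with different genes, and the share ran from 8.40% to 8.79%. The rank of the sma-9 region ran from 14 to 17 in single replicates against 9 in the IDR list. The pooled candidates at the 8 genes numbered 27 within 2000 bp and 66 within 10000 bp, against 43. Replicate ranks of both IDR peaks did not change with matching distances of 50 or 200 bp. No paired analysis was possible because there is 1 group and no test. Depth is unknown, so a missing summit in a replicate means that none was among its 30000 candidates.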
